A study of Drosophila melanogaster with 18 samples.

Results

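The genes described here encode the proteins of the cytosolic ribosome, followed in nuclei of Drosophila melanogaster photoreceptors during ageing and blue light exposure. They were taken by name, as every row of the count table whose symbol begins with RpL or RpS, which gave 92 of 17811 features: 54 of the large subunit, stalk included, and 38 of the small subunit. Proteins of the mitochondrial ribosome (mRpL and mRpS) were not among them, nor were sta and Rack1, ribosome components with other names. Of the 92 genes, 83 had more than 10 counts in every sample and entered the tests, beside 9427 features in all. The RNA came from immunoenriched nuclei of outer photoreceptors R1–R6 of male flies, with ribosomal RNA depleted. There were 6 conditions with 3 biological replicates each. The treated groups were D5 flies (day 5 of adult life) given blue light for 3, 5 or 8 h, and untreated flies aged to D15 or D30. Untreated D5 flies were the common reference, so the comparisons with D5 share their control samples. All groups had the white-eyed genotype w1118; cn bw and carried Rh1-GFP-Msp300KASH line 3-1, in which ninaE (Rh1) regulatory sequences drive a GFP tag on the nuclear membrane of R1–R6. Each sample pooled many flies of this single insertion line. The insertion lies at Catalase, which per the study is overexpressed, and every group shares this feature. The D5 reference was collected before any exposure, so hours of blue light and hours of the day cannot be told apart.

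The ribosome joins a small subunit, which reads the mRNA, to a large subunit, which forms the peptide bond. Ribosomal protein genes are among the most highly transcribed genes of any cell, and most of their products are needed in equal numbers. In Drosophila, loss of 1 copy of many of them gives the Minute phenotype of slow growth. A few have paralogs used mainly in the germ line, and others carry small nucleolar RNAs, which guide the modification of ribosomal RNA, in their introns. Nuclear RNA holds newly made and retained transcripts, so the levels below are not those of the cytoplasmic mRNA pool.

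Counted reads ranged between 11.4 and 20.5 M per sample. D5 and D15 libraries shared a sequencing lane, the 9 blue light libraries shared another, and D30 libraries carried a different run code in their labels. Lane and condition therefore cannot be told apart in the 3 h, 5 h, 8 h and D30 comparisons with D5, whereas D15 against D5 and 8 h against 3 h lie within a lane. The 11 markers of R1–R6 were present in every library and summed to between 40700 and 74900 cpm, the counts scaled to library size. They summed to 70700 to 74900 cpm at D15 and 40700 to 73000 cpm at D30, against 50900 to 58900 cpm at D5. After blue light they summed to between 47100 and 60700 cpm. Summed markers of inner photoreceptors (144 to 650 cpm), other neurons (340 to 778 cpm) and hemocytes (52.7 to 146 cpm) were far lower than those of R1–R6. Those of inner photoreceptors summed to 320 to 650 cpm at D30, against 262 to 296 cpm at D5. They summed to 144 to 239 cpm at 3 h and 209 to 244 cpm at 8 h. Other neuron markers summed to 356 to 515 cpm at 8 h, 340 to 477 cpm at D15 and 351 to 511 cpm at D30, against 653 to 778 cpm at D5, and with the factors 2, 5 and 7 of these 8 markers fell at 8 h, D15 and D30. Hemocyte markers summed to at most 86.8 cpm in every other condition, against 113 to 146 cpm at D5. Glial markers summed to 1470 to 2160 cpm at 3 h, 570 to 772 cpm at 5 h, 315 to 375 cpm at 8 h and 596 to 673 cpm at D5. Among them Eaat1, a glutamate transporter, had 1260, 1110 and 1840 cpm at 3 h against 89.4, 165 and 127 cpm at D5, while the summed level of the other 6 glial markers was not higher at 3 h (317 to 403 cpm) than at D5 (497 to 546 cpm). Testis and germ line markers, relevant to the paralogs, summed to between 3.03 and 22.7 cpm. They summed to 12.0 to 19.2 cpm at 3 h and 3.03 to 4.63 cpm at 8 h, against 5.23 to 11.5 cpm at D5. Of these 9 markers 2 were tested, and at 3 h none was called with the factors and aub was without them (2.91). In bulk nuclei, fewer nuclei of a type and less RNA per nucleus cannot be told apart, and the part of these markers in the results was not tested.

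The 92 genes together took 0.613%, 0.491% and 0.471% of the counts at 3 h, 0.411%, 0.576% and 0.952% at 5 h, 0.473%, 0.434% and 0.517% at 8 h, and 0.847%, 0.555% and 0.770% at D5. With age, the share was 0.490%, 0.439% and 0.494% at D15 and 1.57%, 0.647% and 0.676% at D30. All D15 and 8 h libraries lay below all D5 libraries, the 5 h libraries spanned more than the whole D5 range, and D30 replicate 1 lay above every other library. D30 averaged 0.964% ± 0.525, 8 h 0.475% ± 0.0415, D15 0.474% ± 0.0307 and D5 0.724% ± 0.151 (SD, n = 3 each).

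**Figure D1:**
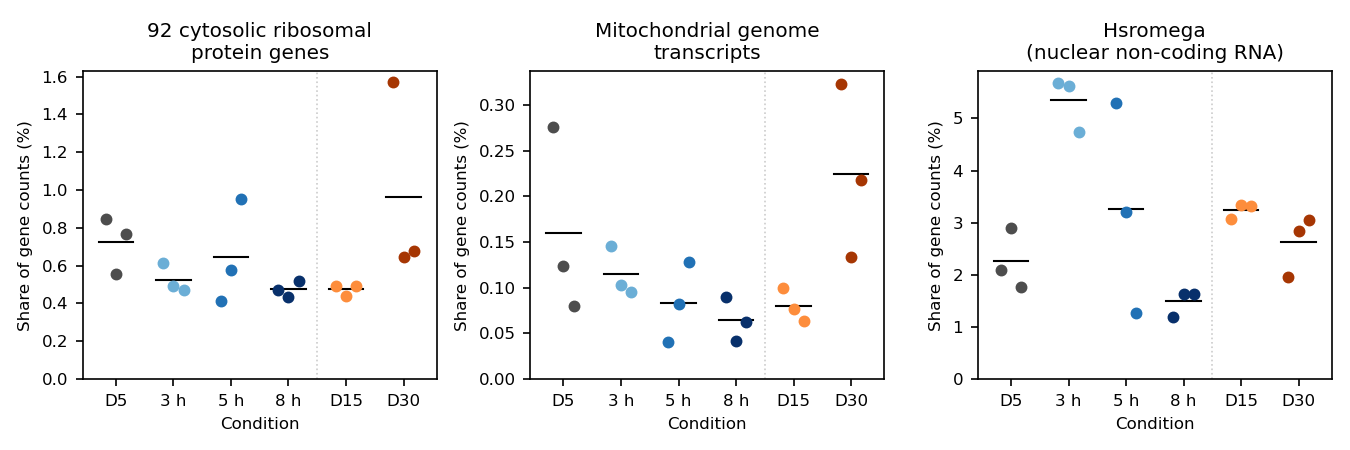
Share of each library's gene counts (%, linear axes starting at 0) taken by the 92 cytosolic ribosomal protein genes (left), by transcripts of the mitochondrial genome (middle) and by Hsromega, a nuclear non-coding RNA (right). Points are libraries, bars are means of 3, 3 h to 8 h are D5 flies after blue light, and D30 replicate 1 stands highest at left with 1.57%.

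Within a condition the tested genes moved together from replicate to replicate. In D30 replicate 1, 82 of 83 genes lay above their D30 mean on the log2 scale, while 50.6% of all tested features did. In 5 h replicate 3, 81 of 83 genes lay above the 5 h mean (50.2% of all features), and in 5 h replicate 1 only 4 did (52.2% of all features). At D5, 80 of 83 genes were above the group mean in replicate 1 and 2 of 83 in replicate 2. Transcripts of the mitochondrial genome, which come from outside the nucleus, took 0.323% of the counts in D30 replicate 1 and 0.134% and 0.218% in the other D30 libraries. At 8 h they took 0.0897%, 0.0418% and 0.0621%, against 0.276%, 0.124% and 0.0805% at D5. Hsromega, a nuclear RNA, took 5.30%, 3.20% and 1.27% in 5 h replicates 1, 2 and 3, the reverse of the order of the ribosomal protein share in those libraries. At 8 h Hsromega and the ribosomal protein share were both below every D5 library (Hsromega 1.20%, 1.63% and 1.64% at 8 h against 2.1%, 2.9% and 1.77% at D5). What these shares have to do with the ribosomal protein level was not tested.

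At D5, the 83 tested genes had a median level of 84.7 cpm per kilobase of exon (RPKM), against a median of 7.32 RPKM over all tested features with a length, and 95.0% of these lay below the median of the ribosomal protein genes. All but 2 of the 83 lay between 10 and 200 RPKM. RpL41, RpL23 and RpL8 had the highest levels per length, with 185 ± 57.1, 170 ± 48.9 and 151 ± 27.6 RPKM (SD, n = 3), and these neighbours in the order did not differ beyond their spread. RpLP0-like (2.77 ± 0.479 RPKM) was the lowest of the tested genes, and RpL38 stood at 18.5 ± 2.99 RPKM. The proteins of the stalk, the flexible arm that recruits translation factors, stood at 121 ± 18.5 RPKM for RpLP0, 102 ± 28.3 RPKM for RpLP1 and 126 ± 34.6 RPKM for RpLP2. The ubiquitin fusion genes RpL40 and RpS27A stood at 86.3 ± 21.1 and 85.3 ± 16.8 RPKM, again within each other's spread.

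The remaining 9 of the 92 genes, all named as a paralog or a -like copy of another ribosomal protein gene, had too few counts for the tests. RpL7-like had no counts in 17 of 18 libraries and 3 counts in the other. It shares 1771 of its 1793 exonic bases with CG34164 on the same strand, which had 0 counts. How reads on the shared bases were assigned was not tested, so the level of RpL7-like is uncertain. RpS28a reached at most 8 counts, RpL10Aa and RpS28-like 13, RpL37-2 16, RpS10a 30, RpL22-like 31 and RpS19b 37. RpS15Ab missed the filter narrowly, with 8 to 55 counts. RpL22-like, RpS10a and RpS19b are known in Drosophila for expression in the germ line. Their partners RpL22, RpS10b and RpS19a stood at 108 ± 10.7, 47.3 ± 9.89 and 50.3 ± 11.4 RPKM at D5, against 0.444 ± 0.397, 0.403 ± 0.297 and 1.39 ± 1.18 RPKM for the germ line paralogs. Both copies were well counted in other pairs: RpL34b stood at 67.9 ± 17.8 and RpL34a at 27.1 ± 6.12 RPKM, and RpS14a at 75.9 ± 21.9 and RpS14b at 35.2 ± 5.85 RPKM. RpS14a and RpS14b lie side by side on the X chromosome with nearly the same sequence, so how reads were divided between them is uncertain.

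Each condition was then compared with D5 in edgeR's quasi-likelihood test over all 9427 features, with 2 factors of unwanted variation (RUVs) estimated from replicates and Benjamini-Hochberg adjustment (a call is an adjusted p under 0.05). With these factors, the median log2 fold change of the 83 genes was -0.23 at D15, 0.26 at D30, 0.33 after 3 h, 0.26 after 5 h and -0.25 after 8 h, while the median of all features was between -0.03 and 0.05. Without the factors the medians were -0.48 at D15, 0.36 at D30, -0.38 after 3 h, -0.11 after 5 h and -0.54 after 8 h. The direction of the family as a whole thus turned with the factors at 3 h and 5 h and was lower at 8 h and D15 and higher at D30 in both fits. With a filter of cpm over 10 in every sample, which left 77 genes, the medians at 8 h and D15 were close to 0 (-0.07 and -0.02), and without any filter the median at 3 h was 0.09. The first factor ranged from 0.4115 to 0.5729 in the 3 h libraries and from -0.2664 to -0.06822 in the D5 libraries, and its part in the 3 h values was not tested. The medians of the large and small subunit genes were within 0.07 of each other in every comparison with the factors (0.36 and 0.30 at 3 h, -0.25 and -0.23 at 8 h, 0.26 and 0.22 at D30).

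**Figure D2:**
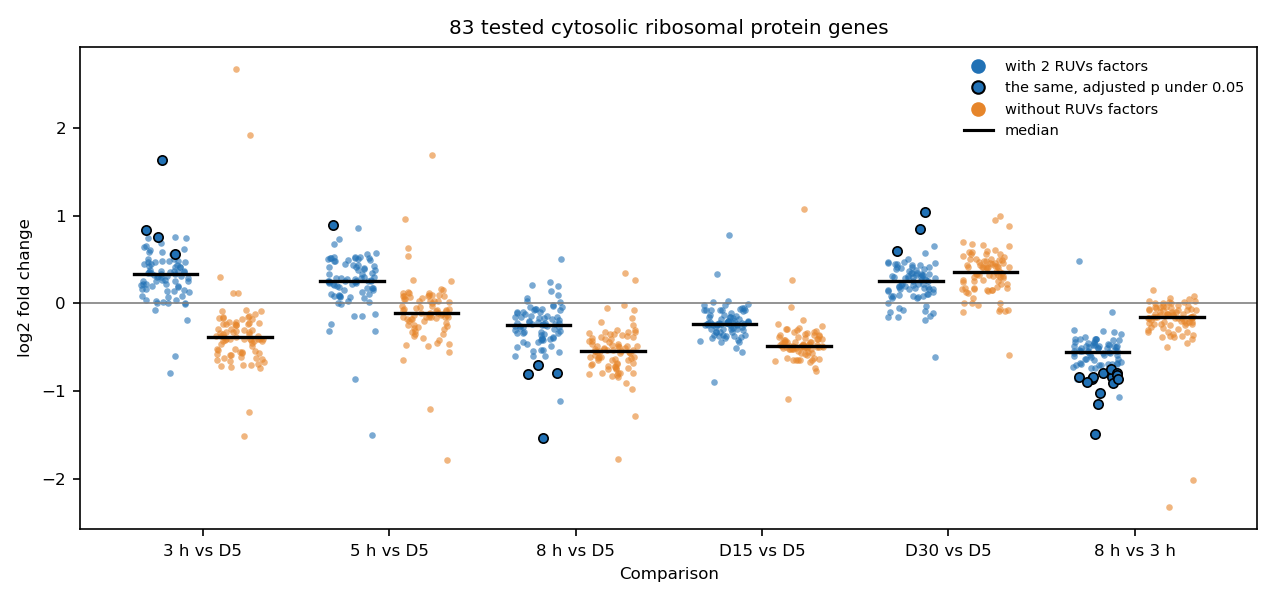
Log2 fold change of each of the 83 tested cytosolic ribosomal protein genes (points) in 6 comparisons, fitted with 2 RUVs factors (blue, left of each pair) and without (orange, right). Black bars are medians and ringed points have an adjusted p under 0.05, and the median at 3 h is 0.33 with the factors and -0.38 without them.

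After 3 h of blue light, RpS15Aa stood apart from the rest of the family. RpS15Aa encodes a protein of the small subunit and lies on the X chromosome (FBgn0010198, chrX:13335637-13337705, minus strand, BDGP6 coordinates). It had 399, 433 and 733 cpm at 3 h against 109, 61.0 and 76.7 cpm at D5. Every 3 h library was far above every D5 library. It rose by 1.63 on the log2 scale with the factors (SE 0.31, 3.09-fold, edgeR adjusted p = 0.00636) and by 2.67 without them (6.36-fold, adjusted p = 0.0014), and it passed the threshold in all 27 alternative fits (adjusted p between 1.63e-05 and 0.0222). Its share of all counts on ribosomal protein genes was 6.37%, 7.86% and 13.0% at 3 h, against 1.34%, 1.16% and 1.11% at D5. The level then came down with longer exposure: it was 485, 196 and 113 cpm at 5 h and 89.0, 116 and 109 cpm at 8 h. At 5 h all libraries were above D5, but the replicates lay far apart and the test missed the threshold with the factors (log2 fold change 0.86, SE 0.27, adjusted p = 0.0573), while it passed without them (1.69, adjusted p = 0.0178).

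The other calls at 3 h, each higher, were RpL22 (0.84, SE 0.23, adjusted p = 0.0372), RpL4 (0.76, SE 0.22, adjusted p = 0.0468) and RpS4 (0.56, SE 0.16, adjusted p = 0.0469), all by edgeR. The 4 higher and 0 lower calls among 83 genes stand beside 4.64% of all features called higher and 3.25% called lower (7.88% in all). At an unadjusted p under 0.05 there were 21 genes (23.8% of all features). Without the factors 2 genes rose, among them RpS15Aa, and RpL41 and RpL5 fell (19.2% of all features called). RpL22, whose fly protein carries a long extension that can bind histone H1, had 160, 130 and 150 cpm at 3 h against 132, 108 and 118 cpm at D5. The 2 groups overlapped, as they did for RpL4 and RpS4, and in the fits without factors none of the 3 was called (log2 fold changes 0.30, 0.12 and -0.14). RpL22 passed in 12 of 27 alternative fits, RpS4 in 9 and RpL4 in 7. In uncorrected cpm, 20 of 83 genes lay below D5 in every 3 h library (24.1% of them; background 22.9%) and 2 above, RpS15Aa among them (background 22.3%). The count of calls was 11 without D30 replicate 3, 9 without D5 replicate 1 and 7 without D30 replicate 1. Over all features, 495 of 9480, 744 of 9449 and 889 of 9446 were called in these fits, against 743 of 9427. The count of genes was 2 without D15 replicate 2 or 3, 3 h replicate 2 or 8 h replicate 1. It was 1 without D15 replicate 1, D5 replicate 2 or 3, 3 h replicate 1 or 3, 5 h replicate 2 or 8 h replicate 2. In the fits with a count of 2 or 1, calls over all features ranged from 413 of 9439 to 804 of 9456.

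After 5 h, RpL4, a large subunit protein that lines the exit tunnel, was the only gene called (log2 fold change 0.89, SE 0.19, edgeR adjusted p = 0.011), against 4.99% of all features called higher and 4.38% lower (9.37% in all). At an unadjusted p under 0.05 there were 28 genes (26.9% of all features), and without the factors RpS15Aa rose and RpL39 and RpL41 fell (12.2% of all features called). It had 188, 280 and 401 cpm at 5 h against 233, 160 and 204 cpm at D5, and the groups overlapped. Without the factors its log2 fold change was 0.54 (adjusted p = 0.194), and it passed in 22 of 27 alternative fits. RpL39, a very short large subunit protein at the exit tunnel that was added after its values were seen, had the lowest value (-1.50, SE 0.46, adjusted p = 0.0534), with 4.14, 1.67 and 8.77 cpm at 5 h against 21.6, 10.8 and 17.9 cpm at D5. Its 5 h libraries lay below all D5 libraries, and it passed in 14 of 26 alternative fits. In all, 2 genes lay wholly above D5 (background 12.6%) and 1 wholly below (background 14.2%). The count of calls was 10 without D5 replicate 1 (all higher) and 9 without 5 h replicate 1 (7 higher, 2 lower). It was 7 without D30 replicate 3 (5 higher, 2 lower) and 6 without D30 replicate 1 (2 higher, 4 lower). Over all features, 1043 of 9449, 815 of 9454, 1069 of 9480 and 1692 of 9446 were called in these fits, against 883 of 9427. The count of genes was 4 without 3 h replicate 1 or 8 h replicate 1 (2 higher and 2 lower each). It was 3 without 5 h replicate 3 (1 higher, 2 lower). It was 2 without D15 replicate 1 or 2 or 8 h replicate 3 (1 higher and 1 lower each). It was also 2 without D30 replicate 2 or 3 h replicate 3 (all higher). In the fits with a count of 4, 3 or 2, calls over all features ranged from 575 of 9489 to 1354 of 9452.

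After 8 h, 4 genes fell and none rose, against 4.48% of all features called lower and 4.61% higher (9.09% in all). At an unadjusted p under 0.05 there were 14 genes (26.8% of all features), and without the factors RpL41, RpL5 and RpL10 fell (19.1% of all features called). The largest decrease was that of RpL41, the smallest protein of the ribosome (FBgn0066084, chr2R:24903416-24903935, minus strand). RpL41 had 25.9, 15.4 and 11.0 cpm at 8 h against 78.0, 41.5 and 58.4 cpm at D5. Every 8 h library was below every D5 library. Its log2 fold change was -1.53 with the factors (SE 0.31, edgeR adjusted p = 0.00876) and -1.77 without them (adjusted p = 0.00597), and it passed in all 27 alternative fits (adjusted p between 0.000108 and 0.032). The gene lies in an intron of NaCP60E, a sodium channel gene on the opposite strand with far more counts, which had 830, 631 and 533 cpm at 8 h against 604, 747 and 758 cpm at D5 (log2 fold change 0.06, adjusted p = 0.872). RpL41 was already low at 3 h, with 22.9, 21.7 and 17.8 cpm, all below D5 (log2 fold change -0.79, adjusted p = 0.148 with the factors, and -1.51, adjusted p = 0.0087 without). At 5 h it had 16.9, 18.3 and 42.2 cpm, the last within the D5 range.

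The other calls at 8 h were RpL38 (-0.80, SE 0.20, adjusted p = 0.025), RpS29 (-0.79, SE 0.19, adjusted p = 0.0188) and RpL5 (-0.70, SE 0.17, adjusted p = 0.0188), by edgeR. RpS29, a zinc-binding protein of the small subunit, had 38.3, 32.3 and 36.2 cpm at 8 h against 88.0, 54.6 and 67.1 cpm at D5. RpL5, which binds 5S ribosomal RNA together with RpL11, had 95.2, 89.8 and 89.2 cpm against 193, 123 and 172 cpm. RpL38 had 13.5, 9.04 and 10.1 cpm against 21.4, 15.4 and 19.4 cpm. None of these groups overlapped, and RpL5 and RpS29 passed in 25 of 27 alternative fits and RpL38 in 20 of 26. RpL11, added after its values were seen, stood at 41.6, 38.1 and 47.3 cpm at 8 h against 75.5, 52.1 and 66.6 cpm at D5 and was not called (-0.46, SE 0.18, adjusted p = 0.109). In uncorrected cpm, 43 of 83 genes (51.8%) lay below D5 in every 8 h library, against 25.2% of all features, and none lay wholly above (background 25.1%). All 11 tested transcripts of the mitochondrial genome also had lower values at 8 h (median -1.27 with the factors and 1 called, -1.42 without and 6 called), and their part in the ribosomal protein values was not tested. How many genes passed depended on single libraries, some of other conditions: the count of calls, all lower, was 74 without D30 replicate 1, 52 without 3 h replicate 1, 19 without D30 replicate 3, 11 without 5 h replicate 1, 9 without D5 replicate 2, 8 without 5 h replicate 2, 7 without D30 replicate 2 and 2 without D5 replicate 3. Calls over all features moved too, to 2983 of 9446 without D30 replicate 1, 3464 of 9452 without 3 h replicate 1 and 2753 of 9480 without D30 replicate 3, against 857 of 9427 with every library. In the other fits named here they ranged from 492 of 9439 to 1115 of 9454.

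**Figure D3:**
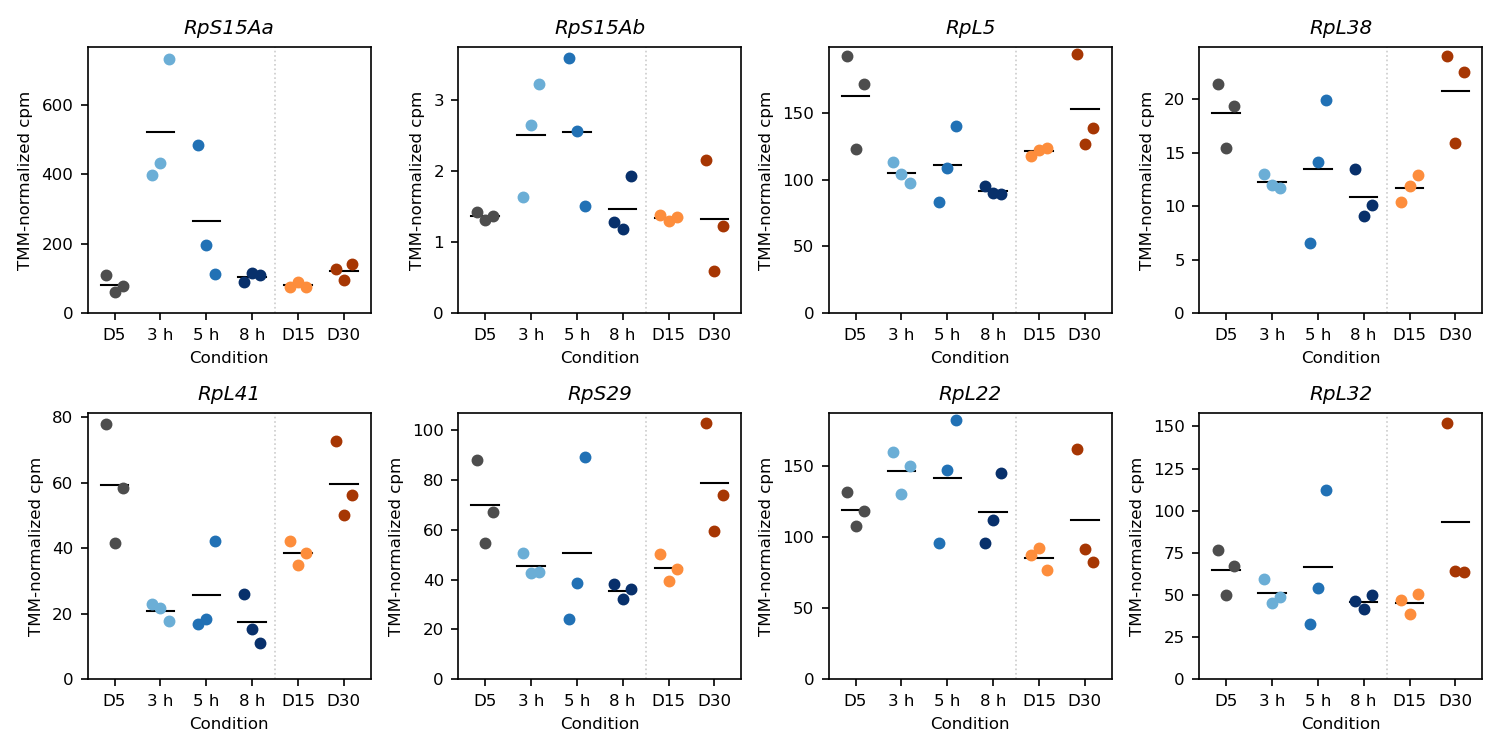
TMM-normalized cpm (linear axes starting at 0, before any RUVs correction) of 8 ribosomal protein genes in each library (points), with bars at the mean of 3 libraries per condition. RpS15Aa is highest at 3 h (399 to 733 cpm), RpL41 is lowest after blue light (11.0 to 42.2 cpm against 41.5 to 78.0 cpm at D5), and D30 replicate 1 is the top point for RpL5, RpS29 and RpL32.

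The exposures of 8 h and 3 h were sequenced in the same lane and were compared directly. With the factors, 14 of 83 genes were called, all lower at 8 h, against 9.08% of all features called lower and 6.4% higher (15.5% in all), and the median log2 fold change was -0.55. At an unadjusted p under 0.05 there were 49 genes (31.8% of all features). Without the factors the median was -0.15, and 2 genes were called, RpS15Aa among them (36.7% of all features called). RpS15Aa fell by 1.49 on the log2 scale with the factors (SE 0.35, edgeR adjusted p = 0.012) and by 2.32 without them (adjusted p = 0.00076), and it passed in all 27 alternative fits. RpS29 had the next largest decrease with the factors (-1.15, SE 0.22, adjusted p = 0.004), with 38.3, 32.3 and 36.2 cpm at 8 h against 50.5, 42.8 and 43.0 cpm at 3 h, and its value without the factors was -0.35 (adjusted p = 0.445). RpL38, RpS16 and RpL30 followed with -1.02, -0.91 and -0.89. In uncorrected cpm, 16 of 83 genes (19.3%) lay wholly below 3 h, against 29.2% of all features. The count of calls was 78 without D30 replicate 3, 77 without D30 replicate 1, 48 without 3 h replicate 1, 46 without 5 h replicate 1, 28 without D5 replicate 2 and 24 without D5 replicate 1. Over all features, 2941 of 9480 were called without D30 replicate 3 and 1893 of 9446 without D30 replicate 1, against 1459 of 9427. Calls over all features were 1244 of 9452 without 3 h replicate 1 and 1708 of 9454 without 5 h replicate 1. They were 2066 of 9433 without D5 replicate 2 and 1906 of 9449 without D5 replicate 1. The count of genes was 9 without D15 replicate 3, 8 without D15 replicate 2, D5 replicate 3 or 3 h replicate 2, 7 without D15 replicate 1, 6 without 8 h replicate 2, 4 without 3 h replicate 3 or 8 h replicate 1, and 3 without 5 h replicate 3. In these last fits, calls over all features ranged from 771 of 9456 to 1461 of 9489.

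At D15, no gene of the family was called by edgeR, against 1.54% of all features called higher and 2.31% lower (3.85% in all). At an unadjusted p under 0.05 there were 11 genes (21.1% of all features), DESeq2's Wald test called 1, and edgeR without the factors called none (0.159% of all features). In uncorrected cpm, 35 of 83 genes (42.2%) lay below D5 in every D15 library, against 17.2% of all features, and 1 gene lay wholly above (background 16.8%). RpL32, which the study used as a reference gene in RT-qPCR, had 47.1, 38.4 and 50.7 cpm at D15 against 76.5, 50.1 and 67.1 cpm at D5, with 1 D15 library inside the D5 range (log2 fold change -0.16, SE 0.18, adjusted p = 0.652). RpLP0 had 106, 101 and 105 cpm against 180, 133 and 169 cpm, without overlap (-0.36, SE 0.17, adjusted p = 0.243). RpL22, higher at 3 h, had 87.0, 92.4 and 76.6 cpm at D15 against 132, 108 and 118 cpm at D5, below in every library (-0.28, SE 0.18, adjusted p = 0.409). Without D30 replicate 1, 23 genes were called at D15 (22 lower and 1 higher, among 1527 of 9446 features against 363 of 9427). Without D5 replicate 2 or 8 h replicate 1 there was 1, lower, among 222 of 9433 and 648 of 9456 features.

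At D30, 3 genes rose and none fell, against 8.75% of all features called higher and 8.71% lower (17.5% in all). At an unadjusted p under 0.05 there were 18 genes (31.9% of all features), and without the factors none was called (4.4% of all features). The call with the largest increase is not reported here, and the others were RpLP0-like and RpL24-like. RpLP0-like, whose yeast relative Mrt4 is a ribosome assembly factor, had 5.95, 5.22 and 4.05 cpm at D30 against 2.17, 3.07 and 2.64 cpm at D5, without overlap (log2 fold change 0.85, SE 0.28, edgeR adjusted p = 0.0457). It shares 39 exonic bases with Jra on the other strand, for which the value was 0.19 (adjusted p = 0.511). RpL24-like, whose yeast relative Rlp24 also acts in assembly, had 35.4, 18.7 and 22.2 cpm against 21.3, 11.6 and 14.8 cpm, with overlap (0.60, SE 0.20, adjusted p = 0.0463). Their values without the factors were alike in size (0.95 and 0.68) but did not pass (adjusted p = 0.0548 and 0.177), and they passed in 13 and 10 of 26 alternative fits.

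The rest of the family at D30 followed D30 replicate 1. RpL32 had 152, 64.4 and 63.7 cpm at D30 against 76.5, 50.1 and 67.1 cpm at D5, and RpS6, the protein phosphorylated by S6 kinase, had 287, 145 and 151 cpm against 171, 114 and 133 cpm. In both, replicate 1 was far above the other D30 libraries and the groups overlapped (log2 fold changes 0.33 and 0.37, adjusted p = 0.217 and 0.166). Only 2 of 83 genes lay above D5 in every D30 library, RpLP0-like among them, against 15.4% of all features, and none lay wholly below (background 11.1%). Without D30 replicate 1 the median log2 fold change was 0.13 in place of 0.26, with 1 gene called higher and 1 lower (1455 of 9446 features called). The count of calls was 43 without D30 replicate 3, 22 without 3 h replicate 1 and 20 without 5 h replicate 1. It was 14 without D5 replicate 1. Over all features, 1621 of 9480, 1370 of 9452, 1714 of 9454 and 1781 of 9449 were called in these fits, against 1646 of 9427. The count of genes was 1 without D5 replicate 2, 5 h replicate 3, 8 h replicate 2 or 8 h replicate 3 (1309 of 9526 to 1562 of 9489 features called). It was 0 without D5 replicate 3, with 897 of 9439 features called.

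The minor paralogs of RpS15Aa and RpL22 were followed over the conditions by level alone. RpS15Ab, the minor partner of RpS15Aa, had 1.63, 2.65 and 3.23 cpm at 3 h against 1.42, 1.31 and 1.37 cpm at D5, all higher, at a small part of the level of RpS15Aa. Since the 2 RpS15A copies are alike in sequence, some of these reads may be shared, and RpS15Ab was not tested with the filter. RpL22-like, the minor partner of RpL22, had 1.29, 0.741 and 0.352 cpm at 3 h and 1.37, 2.28 and 1.06 cpm at D30, against 0.570, 1.02 and 0.0472 cpm at D5, all higher at D30 but at 31 counts or fewer per library.

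Over the 6 condition means after the RUVs correction, the members with profiles most like that of RpS15Aa were RpL35A (Pearson r 0.97), RpS16 (0.962) and RpL32 (0.952). Those most like RpL22 were RpLP0 (0.932), RpL8 (0.873) and RpS4 (0.87). All points share their libraries and the correction. Without the factors the 3 genes nearest to RpS15Aa had values of -0.17 (RpL35A), -0.09 (RpS16) and -0.34 (RpL32) at 3 h, against 2.67 for RpS15Aa, so at 3 h the likeness held only after the correction.

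The genes with the shortest coding sequences had a lower median than the rest of the family in each comparison with D5, 8 h among them. This grouping was made after their values were seen. The 6 tested members with coding sequences of up to 240 bases were RpL41, RpL39, RpS29, RpS28b, RpL38 and RpL29, and their median log2 fold change at 8 h was -0.79, against -0.23 for the other 77. Without the factors the medians at 8 h were -0.88 and -0.53, and at 3 h -0.68 and -0.37. RpL41 has 75 coding bases and RpL39 has 153, and they had the lowest values of the 6 at 8 h in both fits (-1.53 and -1.11 with the factors, -1.77 and -1.28 without). Over the 83 genes, Spearman's rho between coding length and log2 fold change at 8 h was 0.512 with the factors and 0.636 without, whereas over 8776 tested coding genes it was -0.000753 and 0.0232. The 90 other tested genes with coding sequences this short had a median of -0.35 at 8 h. With the factors, rho over the 83 genes was also positive after 3 h (0.337) and 5 h (0.374) of blue light. It was 0.266 for D15, which had no blue light, and -0.202 for D30. The medians of the 6 genes and the other 77 were 0.14 and 0.35 after 3 h, and -0.18 and 0.28 after 5 h. For D15 they were -0.39 and -0.22, and for D30 0.18 and 0.27. All these comparisons share the D5 libraries. In 8 h against 3 h, rho was 0.192 with the factors and 0.0675 without. The genes of a correlation share their libraries, so these values are descriptions.

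**Figure D4:**
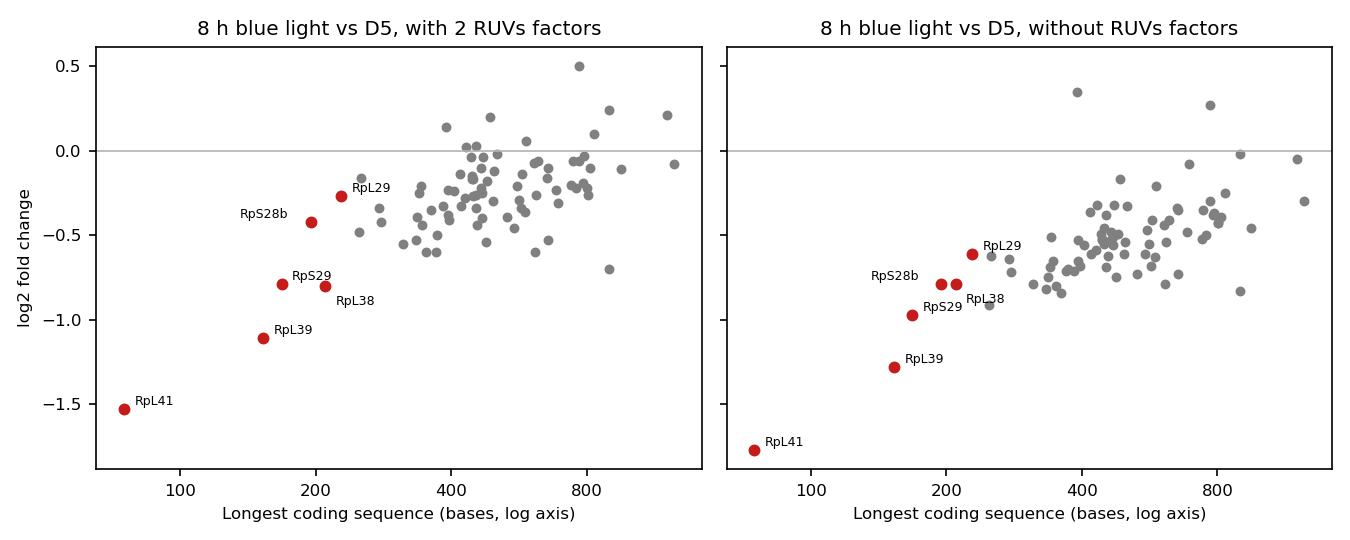
Log2 fold change at 8 h of blue light against D5 for 83 ribosomal protein genes (points), by length of the longest coding sequence in bases (log axis), with the RUVs factors (left) and without (right). The 6 genes of up to 240 bases are red and named, and RpL41 lies lowest in both, at -1.53 and -1.77.

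Other shared features set the genes apart less. The 27 tested members that host small nucleolar RNAs in their introns (67 in all) had a median log2 fold change of 0.37 at 3 h, -0.17 at 8 h and 0.22 at D30, against 0.30, -0.27 and 0.28 for the other 56. Members on the X chromosome, which male flies carry once, had medians of 0.31 at 3 h, -0.22 at 8 h and 0.29 at D30, against 0.34, -0.26 and 0.25 for those on the autosomes. The genes of the stalk and the ubiquitin fusions were not called in any of the 6 comparisons. RpLP1 had 53.4, 49.5 and 40.5 cpm at 3 h and 48.9, 47.5 and 43.8 cpm at 8 h, against 97.9, 55.1 and 83.1 cpm at D5, below in every library at both times (0.03 and -0.39 with the factors, adjusted p = 0.969 and 0.325). RpL40 had 35.0, 31.7 and 37.3 cpm at 8 h against 67.1, 41.1 and 62.4 cpm at D5, also below in every library (-0.33, SE 0.21, adjusted p = 0.331). RpS3, which also has a role in DNA repair, had 74.7, 73.4 and 95.4 cpm at 8 h, overlapping 148, 93.5 and 108 cpm at D5 (-0.20, SE 0.21, adjusted p = 0.574). RpL3, at the peptidyl transferase centre, had 172, 195 and 219 cpm against 238, 212 and 271 cpm, with overlap (-0.08, SE 0.19, adjusted p = 0.807).

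Genes that work with the ribosome were described from lists. Of 55 tested genes of the mitochondrial ribosome, 2 rose and none fell at 3 h and none was called at 8 h, with medians of -0.11 and 0.02, against 0.33 and -0.25 for the cytosolic ribosome with the factors. Without the factors the medians were -0.26 and -0.03, against -0.38 and -0.54. Of 21 tested ribosome biogenesis genes, 8 fell at 3 h and none rose (median -0.76), led by RIOK1, a kinase of small subunit maturation, with 4.72, 4.13 and 4.34 cpm at 3 h against 10.1, 8.59 and 9.01 cpm at D5 (-2.10, SE 0.27, adjusted p = 0.000526). Without the factors, 1 fell and 1 rose at 3 h (median -0.32), and RIOK1 did not pass (-1.07, adjusted p = 0.0654). At 8 h none of the 21 was called, and at D30 3 rose: Fib, the methyltransferase fibrillarin (0.83), pit (0.80) and CG8064 (0.76). Without the factors none of the 3 passed (1.08, 0.70 and 0.70, adjusted p = 0.0699, 0.0683 and 0.0529). Among 13 regulators of ribosomal protein genes or translation, Thor, the 4E-BP that restrains cap-dependent initiation, rose at 3 h (2.45, SE 0.40, adjusted p = 0.00274), 5 h (1.79) and D30 (1.06), with 552, 756 and 952 cpm at 3 h against 136, 50 and 75 cpm at D5. Without the factors Thor passed at 3 h and 5 h (3.12 and 2.40) but not at D30 (0.96, adjusted p = 0.158). With the factors, no other regulator was called at 3 h. Trf2 (0.57) and Irbp18 (0.89) rose and Mnt fell (-0.62) at 5 h. Trf2 rose at 8 h (0.70), and Irbp18 (0.87) and Mnt (0.37) rose at D30. Without the factors Xrp1 (1.87), Trf2 (1.70) and Irbp18 (1.63) also rose at 3 h, and no regulator passed at 8 h or D30. Of 48 tested translation factors and ribosome components with other names, 1 was called at 3 h, eIF2Bepsilon, a subunit of the exchange factor for eIF2 (1.14, SE 0.27, adjusted p = 0.0208), whereas without the factors 10 rose and 4 fell. At 5 h 6 rose and 1 fell, and among those that rose were eIF2beta (1.20), eIF2Balpha (1.10) and eIF2Bdelta (1.09). The small subunit protein sta (RpSA) fell in 8 h against 3 h (-0.85, SE 0.25, adjusted p = 0.0322), with 101, 102 and 115 cpm at 8 h against 143, 117 and 129 cpm at 3 h, and it did not pass without the factors (-0.29, adjusted p = 0.523).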

How the data were processed

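Nuclear RNA of tagged R1–R6 photoreceptors was sequenced in 18 libraries, 3 per condition. Per the labels' processing notes, the authors used CASAVA, Trimmomatic, HISAT2 and HTSeq (version 0.11.1) with the dm6 genome, and deposited a table of raw read counts per gene. The strand setting of the counting is not given in the sources used here. From these counts, a feature was kept if all samples had over 10 counts of it (9427 of 17811). RUVs with 2 factors was rewritten from its published description, TMM scaling was applied, and edgeR (4.0.16, R 4.3.3) tested all 18 libraries in a quasi-likelihood model with Benjamini-Hochberg adjustment over all tested features. The SE beside an edgeR log2 fold change was its absolute value divided by the square root of the F statistic. The script was tested on simulated data. Levels are TMM-scaled cpm before RUVs, and RPKM used the exon union of the BDGP6 annotation.

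Genes were matched to names by FlyBase identifier in 17710 of 17811 features. Members and lists were chosen with earlier results of these data known. Named genes were the members of paralog sets, up to 5 called members with the largest increase and 5 with the largest decrease per comparison, the 3 highest and 3 lowest at D5, the untested members, RpL32, RpS6, the stalk, the ubiquitin fusions, RpS3 and RpL3. Likeness was the Pearson r over condition means. Some members that meet this rule are not reported here. Counted reads ranged between 11.4 and 20.5 M per library, which limits genes with few counts most. Replicates are separate pools of flies. Alternatives were 8 other fits (among them DESeq2 1.42.0 and a replicate block), 18 fits that each left out 1 library, and scaling to the summed member counts, added after seeing the data.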

Additional observations from a re-analysis of the deposited data

Results flagged for a closer look

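The response to 8 h and to 3 h of blue light was compared in a direct test of the difference. In the fit with the RUVs factors, 14 of 83 ribosomal protein genes passed it, all lower at 8 h (edgeR, adjusted p under 0.05). Of all features, 9.08% were called lower and 6.4% higher (15.5% in all). Leaving out 1 library at a time, 3 to 78 of the genes passed, and 771 of 9456 to 2941 of 9480 features did. RpS15Aa differed by -1.49 on the log2 scale and did so in every alternative run. RpS29 (-1.15), RpL38 (-1.02), RpS16 (-0.91) and RpL30 (-0.89) came next. RpL31 differed by -0.86, and RpS18 and RpL11 by -0.84. RpL8 (-0.82), RpS3 (-0.79), RpL37-1 (-0.79) and RpS4 (-0.75) had the smallest differences. Without the factors, these genes other than RpS15Aa had differences between -0.50 and -0.12 and none of them was called. The first factor was between 0.4115 and 0.5729 in the 3 h libraries and between -0.25 and -0.1381 in the 8 h libraries, and its part in these differences was not tested.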

How the results depend on the processing

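Of 5640 alternative values of single named genes, 4767 kept their sign and side of the threshold, 302 newly passed it, 162 no longer passed and 409 had the opposite sign, 401 of them called in neither fit. Leaving out 1 library at a time gave counts of called genes of 0 to 23 at D15, 0 to 43 at D30, 1 to 11 after 3 h, 1 to 10 after 5 h, 2 to 74 after 8 h and 3 to 78 for 8 h against 3 h, and medians of -0.35 to -0.06, 0.12 to 0.50, 0.12 to 0.57, 0.05 to 0.41, -0.66 to -0.07 and -0.95 to -0.37 in the same order. Without RUVs factors, the medians were -0.38 at 3 h, -0.11 at 5 h, -0.54 at 8 h and -0.15 for 8 h against 3 h, and the calls numbered 3 at 5 h, 0 at D30 and 2 for 8 h against 3 h. With the 2 groups alone and no factors, calls numbered 10 at D15, 0 at D30 and 19 after 3 h (2 higher, 17 lower). They numbered 0 after 5 h, 40 after 8 h and 4 for 8 h against 3 h. Over all features, 855 of 10489 were called at D15, 315 of 10487 at D30 and 2685 of 10509 at 3 h. Calls over all features were 0 of 10074 at 5 h, 3259 of 9928 at 8 h and 4430 of 9893 for 8 h against 3 h. Medians of the genes were -0.38, -0.10, -0.53 and -0.51 at 3 h, 5 h, 8 h and D15. The median was -0.14 for 8 h against 3 h. With 1 factor, calls numbered 1 at 3 h, 4 at 5 h, 45 at 8 h, 7 at D30 and 62 for 8 h against 3 h. Its medians were 0.13 at 5 h, -0.55 at 8 h, 0.40 at D30 and -0.84 for 8 h against 3 h. Over all 9427 features, calls numbered 436 at 3 h, 1060 at 5 h and 1198 at D30. They numbered 3288 at 8 h and 2477 for 8 h against 3 h (857 and 1459 with 2 factors). Without the filter on low counts, calls numbered 3 at 5 h, 40 at 8 h and 0 at D30. For 8 h against 3 h there were 31. Over all 17024 features they numbered 1263, 2245, 601 and 2176 in the same order. Medians were 0.09 at 3 h, -0.05 at 5 h, -0.60 at 8 h, -0.38 at D15 and -0.68 for 8 h against 3 h. With cpm over 10 in every sample, calls among 77 genes numbered 7 at 3 h, 15 at 5 h and 30 at D30. For 8 h against 3 h there were 9. Over all 4211 features they numbered 802, 1055, 1114 and 1326 in the same order. Medians were -0.07 at 8 h, -0.02 at D15, 0.41 at D30 and -0.39 for 8 h against 3 h. Upper-quartile scaling gave 7 calls at 3 h, 2 at 5 h and 9 at D30, and a D15 median of -0.11. Over all 9427 features it gave 729, 893 and 1699 calls at 3 h, 5 h and D30. DESeq2 gave 7 at 3 h, 4 at 5 h, 7 at 8 h, 1 at D15 and 25 for 8 h against 3 h. Its calls over all 9427 features numbered 1036, 1267, 1152, 677 and 1805 in the same order. Same-numbered replicates did not all correlate above 0.1. With 3 replicates this cannot show whether they share more than a number. The replicate block gave 3 calls at D15, 10 at D30, 4 after 5 h and 11 after 8 h. Over all 9427 features it gave 559, 1834, 1019 and 729 calls in the same order. Its median was -0.72 for 8 h against 3 h. At 3 h, RpLP1 (-0.72), RpS4 (-0.13), RpL38 (-0.61) and RpS29 (-0.62) were lower with the 2 groups alone, and RpS4 was at -0.14 without factors. Scaled to the summed member counts, chosen after seeing the data, 65 of 83 genes were higher in 8 h against 3 h. The median was 0.12, against 0.24 for all features. This scaling sets the summed counts of the 92 genes equal in all libraries, so it cannot show whether the family changed as a whole. RpS15Aa made up 6.37%, 7.86% and 13.0% of that sum at 3 h and 1.94%, 2.57% and 2.04% at 8 h. Among the genes that turned were RpS4 (0.02), RpL38 (0.11), RpL8 (0.05), RpL31 (0.14) and RpL11 (0.03). RpS29 was at -0.07, and RpS15Aa was the 1 gene called (-2.05, edgeR adjusted p = 0.0162). The causes of the differences among the other fits were not tested. Where edgeR gave 0 calls at D30, genes at an unadjusted p under 0.05 numbered 6 without factors, 17 without the filter and 3 with the 2 groups alone, and with the 2 groups alone at 5 h they numbered 4. Depth limits RpS15Ab and the other untested paralogs most.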

Other observations

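The genes beside RpS15Aa were examined after its values were seen. Of 6 annotated genes within 10 kb, all tested, 3 rose at 3 h. The nearest of these, CG15747, lies 613 bases away and had 47.0, 71.2 and 88.1 cpm at 3 h against 17.6, 27.1 and 20.5 cpm at D5 (log2 fold change 1.13, edgeR adjusted p = 0.00921). The long non-coding RNA gene lncRNA:CR45708 had 255, 335 and 321 cpm at 3 h against 30, 20.5 and 17.5 cpm at D5 (1.93, adjusted p = 0.00884). Its neighbour lncRNA:CR45709 had 215, 255 and 348 cpm against 33.1, 15 and 12.5 cpm (2.19, adjusted p = 0.00423). The others, lncRNA:CR32636 (0.98, adjusted p = 0.0848), IP3K2 (0.69, adjusted p = 0.10) and Prx2 (0.06, adjusted p = 0.885), were not called. None shares exonic bases with RpS15Aa, and whether reads of one transcript were counted for another was not tested.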
